A study of Mus musculus with 8 samples.

Results

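The 10 genes described here move high-energy phosphate and oxygen inside heart muscle. They are the creatine kinase genes Ckm, Ckb and Ckmt2, the creatine transporter Slc6a8, the adenylate kinase gene Ak1, the adenine nucleotide translocase genes Slc25a4 and Slc25a5, the outer membrane channel genes Vdac1 and Vdac2, and the myoglobin gene Mb. They were chosen by gene symbol, at a time when earlier results of these data were known. All 10 were found among the 56748 genes of the deposited count table. All 10 also passed the filter on low counts that left 16002 genes to test.

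RNA was measured in whole mouse hearts after 56 days of transverse aortic constriction, an operation that narrows the aortic arch and makes the left ventricle pump against a raised pressure. In the 4 CS7KO hearts (replicates 1, 2, 3 and 4), cardiomyocytes lacked Smad7, an intracellular brake on signalling from TGF-beta receptors. The gene was removed by Cre, which was expressed from the alpha myosin heavy chain promoter, active in this cell type. The 4 CRE hearts (replicates 1, 2, 3 and 5) were Cre controls and carried the same Cre. Every heart of both groups was banded, so the data hold no unbanded heart. The mice were 3 to 4 months old, of a strain that the labels spell C56BL, and each group had 2 hearts labelled male and 2 labelled female. Banding was kept only where the ratio of right to left carotid flow lay between 3 and 25. The series design calls the samples independent, and the question it poses is how loss of Smad7 in cardiomyocytes changes the transcripts of the loaded heart.

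Heart muscle makes most of its ATP in mitochondria and spends it at the myofilaments and ion pumps. Inside the mitochondrion the translocases exchange ATP for ADP across the inner membrane, and the channels of the outer membrane pass both on. Mitochondrial creatine kinase hands the phosphate from ATP to creatine, and cytosolic creatine kinase turns phosphocreatine back into ATP at the sites of use. Creatine itself is taken up from the blood by a transporter, adenylate kinase rebalances ATP, ADP and AMP, and myoglobin stores oxygen and eases its diffusion to the mitochondria.

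Libraries held between 16679724 and 40181492 counts in CS7KO hearts and between 16476420 and 29751644 in CRE hearts. A count of 3, the limit that a count of 0 allows, stood for 0.0644 to 0.363 CPM (counts scaled to library size), and this limit and all binomial intervals cover counting error only. Mitochondrially encoded genes took 20.2% to 24.9% of the counts in CS7KO libraries, and 15.04%, 20.3%, 41.1% and 69.8% in CRE 1, 2, 3 and 5. CRE 1 also stood apart in its weak counts, with 537 genes at 1 to 9 counts against 5848 or more in each other library. Smad7 itself averaged 18.3 ± 7.14 CPM in CS7KO hearts and 28.4 ± 11.9 CPM in CRE hearts (SD, n = 4 each), with overlapping groups, a log2 difference of -0.59 (SE 0.34) and an edgeR adjusted p of 0.509. Cells other than cardiomyocytes keep their Smad7 in this model, and counts per gene do not show which exons were read. The summed CPM of the Y-linked genes Ddx3y, Uty, Kdm5d and Eif2s3y was 160 to 253 in all 8 libraries, and Xist was at most 1.03 CPM. The 4 libraries labelled female therefore went against their labelled sex. Labelled sex stayed in the model as the labels give it, and results are also given without it.

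Across the 10 genes the fitted level was higher in CS7KO hearts for 8 and lower for Ckmt2 and Ckb, against 51.9% of all tested genes higher and 48.1% lower. None of the 10 passed edgeR's quasi-likelihood test at an adjusted p under 0.05, a threshold that 0.0375% of tested genes passed. At an unadjusted p under 0.05 the count was 4 of 10, namely Slc6a8, Ckb, Vdac1 and Slc25a5, against 12.6% of tested genes. The median log2 fold change of the 10 genes was 0.53, and that of all tested genes was 0.03. This direction rested on CRE 3 and CRE 5, since without them 3 of the 10 genes were higher and the median was -0.28. Such a fit, here and below, leaves no CRE heart labelled female. With the sex term it therefore estimates genotype from CS7KO 1 and 2 against CRE 1 and 2. With the sex term dropped as well, 3 of the 10 genes were higher and the median was -0.19. In 3 genes, Slc25a5, Vdac1 and Slc6a8, every CS7KO heart lay above every CRE heart, against 6.24% of tested genes, and in 0 of the 10 every CS7KO heart lay below, against 4.11%. DESeq2, run as an alternative, passed 1 of the 10, Slc6a8, against 3.14% of tested genes.

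**Figure D1:**
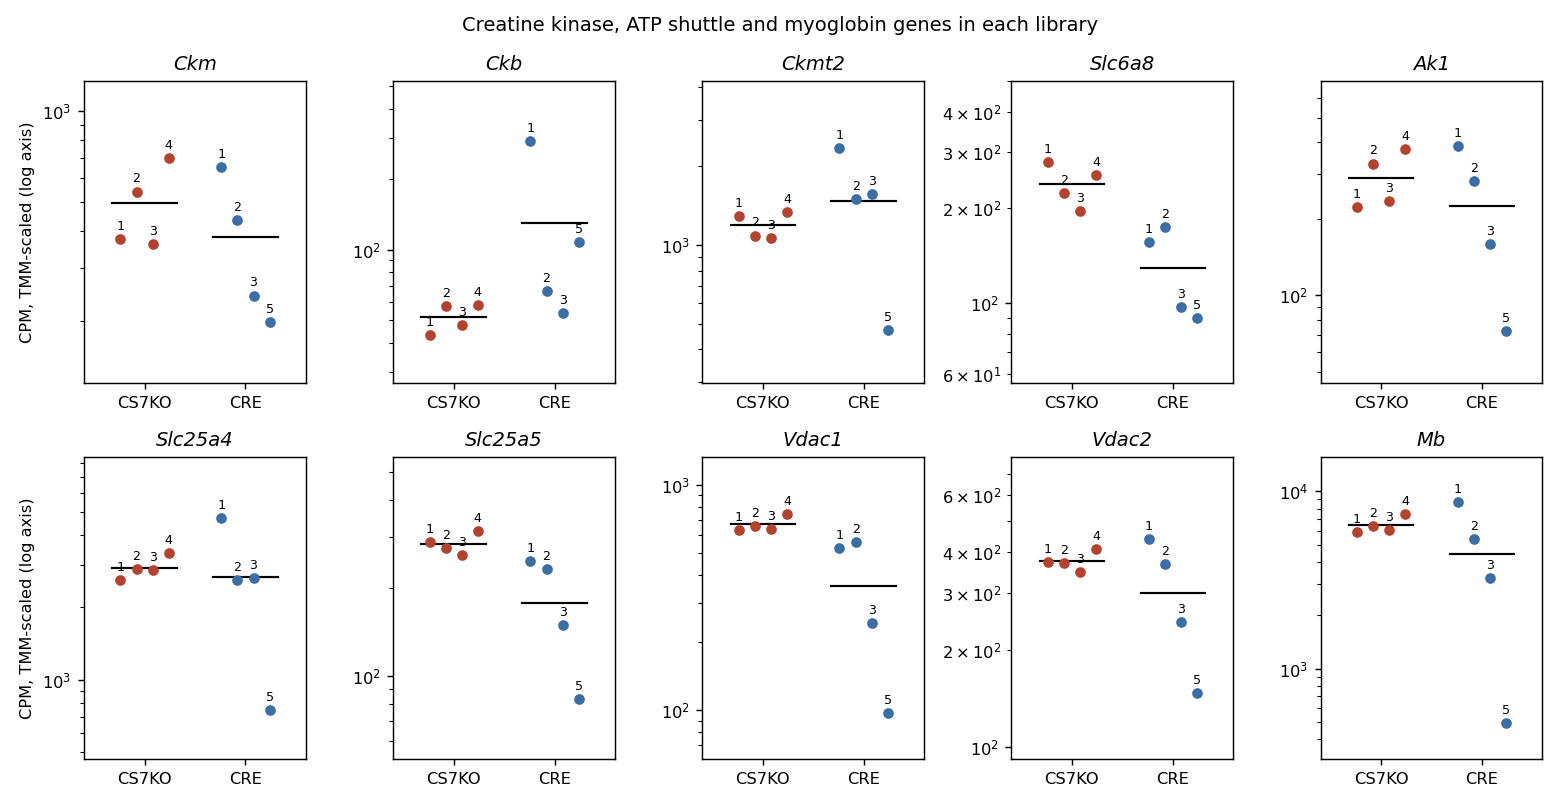
TMM-scaled CPM on log axes for each gene in the 4 CS7KO (left) and 4 CRE (right) libraries, with replicate numbers beside the points and black bars for group means. CRE replicate 5 was the lowest of the 8 libraries for every gene except Ckb, and the CS7KO points lay closer together than the CRE points in each panel.

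Per length of transcript the genes kept a wide order. The scale here is CPM per kilobase of the deposited gene length, and the quantity is a level. Mb averaged 4311 ± 478 in CS7KO hearts and 2989 ± 2327 in CRE hearts (SD, n = 4 each), and it ranked first of the 10 in every library. Slc25a4 followed at 1243 ± 136 in CS7KO hearts and 1138 ± 687 in CRE hearts, and Ckmt2 at 804 ± 93.4 in CS7KO hearts and 992 ± 518 in CRE hearts. Slc25a4 lay above Ckmt2 in 7 of the 8 libraries; in CRE 5 they were level, at 318 and 320. Below them came Vdac1, with 255 ± 19.0 in CS7KO hearts and 136 ± 84.9 in CRE hearts. Slc25a5 and Ckm changed places between libraries, at 172 ± 14.1 and 170 ± 54.5 in CS7KO hearts and 108 ± 46.8 and 131 ± 70.8 in CRE hearts. The lower end of the order held Ak1, Vdac2, Slc6a8 and Ckb. Ckb was last in 4 of 4 CS7KO hearts with 17.8 ± 2.55, and averaged 44.9 ± 38.2 in CRE hearts, where its place among the 10 varied between 6 and 10.

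Ckm encodes the muscle form of cytosolic creatine kinase, part of which sits at the M-line beside myosin. In the deposited table the gene (ENSMUSG00000030399) lies on the plus strand of chromosome 7 from 19138701 to 19156766, in a build that could not be settled. Ckb encodes the brain form, which the heart also makes and which is the main form of the fetal heart. It (ENSMUSG00000001270) lies on the minus strand of chromosome 12 from 111635795 to 111638772. The 250 bases before the RefSeq start of each (GRCm38.p6, Ckm at chr7:19410844-19411093 on the plus strand, Ckb at chr12:111672339-111672588 on the minus strand) are shown because these genes encode the forms whose balance is compared between the groups, with capitals for matches to the motifs searched.
Ckm: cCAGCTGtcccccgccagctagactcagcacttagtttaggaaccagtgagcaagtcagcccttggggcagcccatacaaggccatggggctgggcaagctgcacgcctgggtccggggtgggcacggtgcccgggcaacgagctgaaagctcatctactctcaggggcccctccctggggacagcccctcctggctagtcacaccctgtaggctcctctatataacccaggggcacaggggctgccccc
Ckb: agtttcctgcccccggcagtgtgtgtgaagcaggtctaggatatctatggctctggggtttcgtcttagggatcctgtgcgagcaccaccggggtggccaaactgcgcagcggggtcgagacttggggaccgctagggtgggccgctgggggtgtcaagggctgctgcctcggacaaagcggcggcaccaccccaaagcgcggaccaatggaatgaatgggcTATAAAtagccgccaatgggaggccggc
In the Ckm window the capitals mark an E-box (CANNTG, bound by basic helix-loop-helix factors), whose first base lay 249 bases before the start. In the Ckb window they mark a TATA box (TATAAA) 28 bases before the start, and no E-box was found there. Both strands were searched, also for the GC box GGGCGG and AAGGTCA, a core site of estrogen-related receptors, and neither was found in these windows. Of 32851 RefSeq windows of this length, 66.2% held an E-box, 12.4% a TATA box, 32.7% a GC box and 4.08% the receptor site. A match is a description of the letters, and no factor was measured here.

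Ckm stood at 376, 540, 362 and 699 CPM in CS7KO 1, 2, 3 and 4, against 651, 436, 244 and 199 CPM in CRE 1, 2, 3 and 5. The groups overlapped, with the highest CS7KO heart above all CRE hearts and the lowest CRE hearts below all CS7KO hearts. Means were 494 ± 159 CPM in CS7KO hearts and 382 ± 206 CPM in CRE hearts (SD, n = 4 each). The log2 fold change was 0.51 (SE 0.43, 95% interval -0.44 to 1.46), with an edgeR adjusted p of 0.669. It was 0.37 without the sex term and turned to -0.30 without CRE 3 and CRE 5.

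Ckb stood at 42.9, 57.5, 47.8 and 57.8 CPM in CS7KO 1 to 4, against 292, 66.7, 53.3 and 108 CPM in CRE 1, 2, 3 and 5. Of the CRE hearts, 1 fell inside the CS7KO range and CRE 1 lay far above the rest. Ckb was the 1 gene of the 10 in which CRE 5 was not the lowest library. Means were 51.5 ± 7.37 CPM in CS7KO hearts and 130.04 ± 111 CPM in CRE hearts (SD, n = 4 each). The fold was 0.428, a log2 fold change of -1.22 (SE 0.49, 95% interval -2.31 to -0.14), with an unadjusted p of 0.0312 and an edgeR adjusted p of 0.355. Its sign stayed negative in all 25 alternatives computed, between -1.88 and -0.18, and without the sex term it was -1.34 (adjusted p 0.310). The value nearest 0 came without CRE 1 and CRE 5, and without CRE 1 alone it was -0.49.

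The balance of the cytosolic forms needs no scaling of libraries, since both genes are read from the same one. Ckb made up 10.3%, 9.62%, 11.7% and 7.64% of the Ckb and Ckm counts in CS7KO 1 to 4, against 31.0%, 13.3%, 18.0% and 35.1% in CRE 1, 2, 3 and 5. Every CS7KO heart lay below every CRE heart. Mean shares were 9.79% ± 1.67 in CS7KO hearts and 24.3% ± 10.4 in CRE hearts (SD, n = 4 each), a difference of -14.5 percentage points. An exact two-sided permutation test gave p = 0.0286, the smallest that 4 against 4 allow, and 0.0714 after adjustment over the 5 shares tested. Without CRE 1 and CRE 5 the difference was -5.83 points, and without CRE 5 alone it was -11.0 points.

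Ckmt2 encodes the sarcomeric mitochondrial creatine kinase, which forms octamers between the mitochondrial membranes. The gene (ENSMUSG00000021622) lies on the minus strand of chromosome 13 from 92001506 to 92025004 in the deposited table. It stood at 1287, 1089, 1065 and 1340 CPM in CS7KO 1 to 4, against 2351, 1502, 1570 and 476 CPM in CRE 1, 2, 3 and 5. Of the CRE hearts, 3 lay above and 1 lay below all CS7KO hearts. Means were 1195 ± 139 CPM in CS7KO hearts and 1475 ± 769 CPM in CRE hearts (SD, n = 4 each), a log2 fold change of -0.23 (SE 0.46, 95% interval -1.26 to 0.80) with an edgeR adjusted p of 0.883. The sign turned without CRE 1 (0.051) and without CRE 3 (0.035). As a share of the Ckm, Ckb and Ckmt2 counts, Ckmt2 held 75.5%, 64.6%, 72.2% and 63.9% in CS7KO 1 to 4, against 71.4%, 74.9%, 84.1% and 60.8% in CRE 1, 2, 3 and 5. These shares overlapped, with means of 69.0% ± 5.70 in CS7KO hearts and 72.8% ± 9.63 in CRE hearts and an exact permutation p of 0.629.

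Slc6a8 encodes the sodium- and chloride-coupled transporter through which cardiomyocytes, which make little creatine of their own, take it up from the blood. The gene (ENSMUSG00000019558) lies on the plus strand of the X chromosome from 72716756 to 72726108 in the deposited table. Its level was 278, 222, 194 and 253 CPM in CS7KO 1 to 4, against 156, 173, 97.0 and 89.5 CPM in CRE 1, 2, 3 and 5. The groups did not overlap, and Slc6a8 had the narrowest spread of the 10 genes among CRE hearts, with a highest value 1.94 times the lowest. Means were 237 ± 36.4 CPM in CS7KO hearts and 129 ± 41.8 CPM in CRE hearts (SD, n = 4 each). The fold was 1.91, a log2 fold change of 0.93 (SE 0.28, 95% interval 0.32 to 1.55), with an unadjusted p of 0.00701. Its adjusted p of 0.291 by edgeR was the smallest of the 10 and missed the threshold. DESeq2 gave a log2 fold change of 0.95 with an adjusted p of 0.0192, so the call differed between tools. The sign was positive in all 25 alternatives, with values of 0.47 to 1.07, and without the sex term the value was 0.88 (adjusted p 0.298).

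Ak1 encodes the main cytosolic adenylate kinase of muscle, which makes ATP and AMP from a pair of ADP molecules. The gene (ENSMUSG00000026817) lies on the plus strand of chromosome 2 from 32511770 to 32525070 in the deposited table. It stood at 222, 331, 235 and 377 CPM in CS7KO 1 to 4, against 388, 281, 159 and 72.2 CPM in CRE 1, 2, 3 and 5. The CS7KO hearts lay inside the range of the CRE hearts. Means were 291 ± 74.9 CPM in CS7KO hearts and 225 ± 138 CPM in CRE hearts (SD, n = 4 each), with a log2 fold change of 0.56 (SE 0.45) and an edgeR adjusted p of 0.654. Without CRE 3 and CRE 5 it was -0.33.

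**Figure D2:**
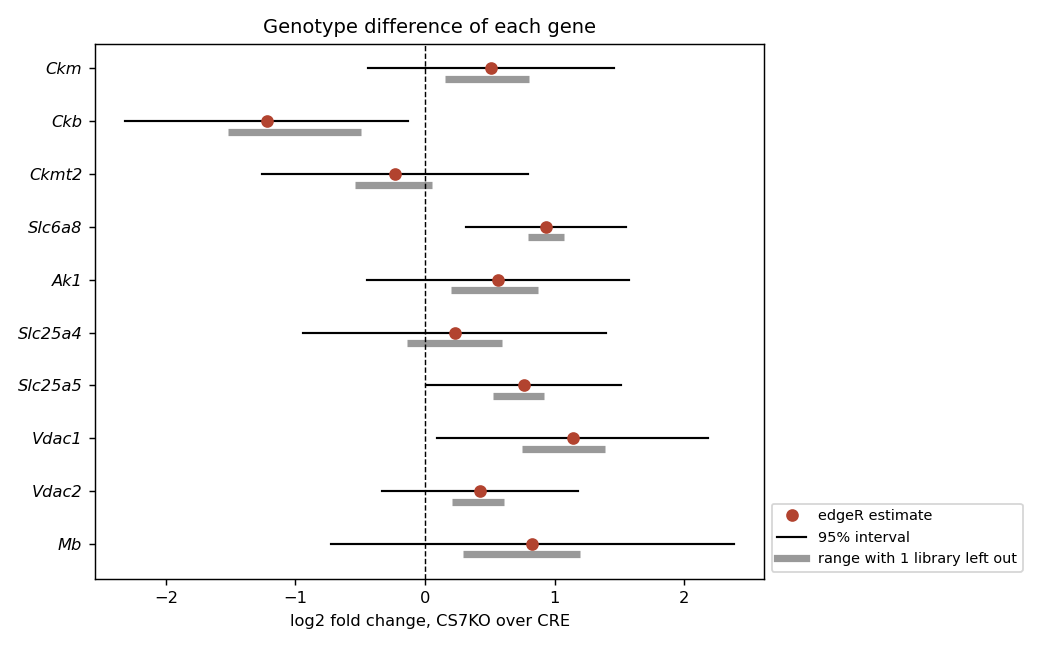
Log2 fold change of CS7KO over CRE from edgeR for each gene (red points) with its 95% interval (black) and the range of the estimate when 1 library at a time was left out (grey). Intervals for Slc6a8, Slc25a5, Vdac1 and Ckb excluded 0 before adjustment, and those of the other 6 genes included it.

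Slc25a4 and Slc25a5 encode the adenine nucleotide translocases of the inner membrane, the first the heart and muscle form and the second a form found in most tissues. In the deposited table Slc25a4 (ENSMUSG00000031633) lies on the minus strand of chromosome 8 from 46659834 to 46664321, and Slc25a5 (ENSMUSG00000016319) on the plus strand of the X chromosome from 36059304 to 36062460. The 250 bases before each RefSeq start (GRCm38.p6, Slc25a4 at chr8:46211063-46211312 on the minus strand, Slc25a5 at chrX:36795347-36795596 on the plus strand) are shown because the pair encode forms of the same carrier whose balance is compared between the groups.
Slc25a4: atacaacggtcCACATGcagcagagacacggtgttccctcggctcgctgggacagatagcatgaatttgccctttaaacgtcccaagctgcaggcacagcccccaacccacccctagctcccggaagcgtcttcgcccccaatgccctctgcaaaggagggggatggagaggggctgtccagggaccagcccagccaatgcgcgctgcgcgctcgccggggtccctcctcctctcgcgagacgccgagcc
Slc25a5: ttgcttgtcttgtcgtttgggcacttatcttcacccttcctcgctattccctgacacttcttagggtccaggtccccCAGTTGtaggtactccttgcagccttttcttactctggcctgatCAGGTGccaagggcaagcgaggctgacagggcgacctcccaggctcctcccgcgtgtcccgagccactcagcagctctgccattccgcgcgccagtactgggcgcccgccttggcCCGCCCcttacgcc
Capitals mark 1 E-box in the Slc25a4 window, 239 bases before the start, and 2 in the Slc25a5 window, 173 and 129 bases before it. The last capitals of the Slc25a5 window are a GC box read on the other strand, 14 bases before the start. Neither window held a TATA box or the receptor site AAGGTCA. No motif overlapped another in these 4 windows.

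Slc25a4 stood at 2600, 2875, 2859 and 3367 CPM in CS7KO 1 to 4, against 4702, 2603, 2654 and 748 CPM in CRE 1, 2, 3 and 5. The CS7KO hearts lay within the CRE range, whose highest value was 6.29 times its lowest. Means were 2926 ± 320 CPM in CS7KO hearts and 2677 ± 1615 CPM in CRE hearts (SD, n = 4 each), with a log2 fold change of 0.23 (SE 0.52) and an edgeR adjusted p of 0.901. The sign turned without CRE 5, at -0.14.

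Slc25a5 stood at 288, 274, 259 and 314 CPM in CS7KO 1 to 4, against 248, 233, 149 and 83.1 CPM in CRE 1, 2, 3 and 5. The groups did not overlap, although CRE 1 lay close below the lowest CS7KO heart. Means were 284 ± 23.2 CPM in CS7KO hearts and 179 ± 77.0 CPM in CRE hearts (SD, n = 4 each), a fold of 1.70. The log2 fold change was 0.76 (SE 0.34, 95% interval 0.01 to 1.51), with an unadjusted p of 0.0475 and an edgeR adjusted p of 0.389. Without the sex term it was 0.67 (adjusted p 0.431), and over all 25 alternatives it ran between 0.17, without CRE 3 and CRE 5, and 0.91. Slc25a5 has 8 near-identical pseudogenes, 7 of them with counts, which together held 2.56% as many counts as the gene. Reads that match several copies could be lost or placed on another copy in the authors' counting, so its level is uncertain by an amount not measured here. Its share of the translocase counts was 9.99%, 8.70%, 8.31% and 8.52% in CS7KO 1 to 4, against 5.01%, 8.23%, 5.33% and 10.001% in CRE 1, 2, 3 and 5. The shares overlapped through CRE 5, with means of 8.88% ± 0.75 in CS7KO hearts and 7.14% ± 2.39 in CRE hearts and an exact permutation p of 0.229. Without CRE 5 the difference was 2.69 points, and no test is read from that, since leaving out the 1 overlapping heart fixes the separation.

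Vdac1 and Vdac2 encode voltage-dependent anion channels, the pores through which nucleotides and creatine metabolites cross the outer membrane, and to which hexokinase docks. In the deposited table Vdac1 (ENSMUSG00000020402) lies on the plus strand of chromosome 11 from 52251687 to 52280224, and Vdac2 (ENSMUSG00000021771) on the plus strand of chromosome 14 from 21875306 to 21895947. Vdac1 stood at 633, 660, 638 and 740 CPM in CS7KO 1 to 4, against 522, 559, 243 and 97.3 CPM in CRE 1, 2, 3 and 5. All CS7KO hearts lay above all CRE hearts, and CRE 3 and CRE 5 lay far below CRE 1 and CRE 2. Means were 668 ± 49.8 CPM in CS7KO hearts and 355 ± 222 CPM in CRE hearts (SD, n = 4 each), a fold of 2.20. The log2 fold change was 1.14 (SE 0.47, 95% interval 0.09 to 2.18), with an unadjusted p of 0.0358 and an edgeR adjusted p of 0.364. Without the sex term it was 0.91 (adjusted p 0.441), and its lowest value over the 25 alternatives was 0.20, without CRE 3 and CRE 5.

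Vdac2 stood at 375, 371, 349 and 410 CPM in CS7KO 1 to 4, against 439, 368, 243 and 147 CPM in CRE 1, 2, 3 and 5. The groups overlapped, and Vdac2 had the smallest relative spread of the 10 genes among CS7KO hearts, an SD of 6.76% of the mean. Means were 376 ± 25.4 CPM in CS7KO hearts and 299 ± 130 CPM in CRE hearts (SD, n = 4 each), with a log2 fold change of 0.42 (SE 0.34) and an edgeR adjusted p of 0.653. The neighbouring gene Comtd1 overlaps Vdac2 and held 1.05% as many counts. Near-identical pseudogenes were also found for Vdac2 (1), Vdac1 (3) and Ckb (1). They held 0.0264%, 0.0656% and 0.0246% as many counts as the gene. Reads lost or misplaced among these copies were not measured either. Vdac2 took 37.2%, 36.0%, 35.4% and 35.7% of the Vdac1 and Vdac2 counts in CS7KO 1 to 4, against 45.7%, 39.7%, 50.01% and 60.2% in CRE 1, 2, 3 and 5. The CS7KO hearts lay close together and below every CRE heart. Mean shares were 36.1% ± 0.80 in CS7KO hearts and 48.9% ± 8.63 in CRE hearts, a difference of -12.8 points with an exact two-sided permutation p of 0.0286 and 0.0714 after adjustment over the 5 shares. Without CRE 5 the difference was -9.07 points, and without CRE 3 and CRE 5 it was -6.63 points.

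**Figure D3:**
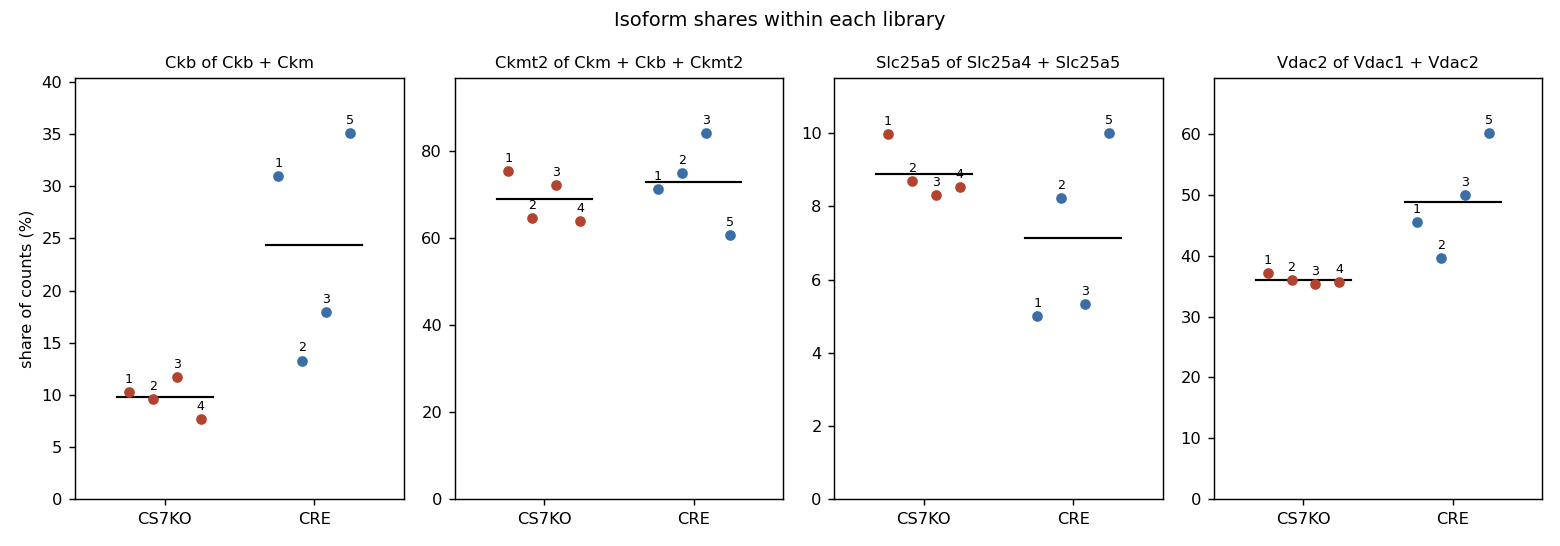
Share of counts in percent within each library for 4 pairings, CS7KO (left) and CRE (right), with replicate numbers beside the points and black bars for group means. Ckb of Ckb and Ckm, and Vdac2 of Vdac1 and Vdac2, did not overlap between the groups, with all CS7KO hearts below all CRE hearts, and the other shares overlapped.

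Mb encodes myoglobin, the oxygen-binding globin of heart and slow skeletal muscle. The gene (ENSMUSG00000018893) lies on the minus strand of chromosome 15 from 76899687 to 76934870 in the deposited table. It stood at 5869, 6392, 6019 and 7450 CPM in CS7KO 1 to 4, against 8705, 5411, 3225 and 495 CPM in CRE 1, 2, 3 and 5. Mb had the widest range of the 10 genes among CRE hearts, with a highest value 17.6 times the lowest, against 1.27 times among CS7KO hearts. Means were 6432 ± 713 CPM in CS7KO hearts and 4459 ± 3472 CPM in CRE hearts (SD, n = 4 each), with a log2 fold change of 0.83 (SE 0.70, 95% interval -0.73 to 2.38) and an edgeR adjusted p of 0.671. It turned to -0.25 without CRE 3 and CRE 5. Among nuclear genes ranked by level per length, Mb placed between 1 and 55 over the 8 libraries.

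Summed, the 10 genes took 1.59%, 1.95%, 1.75% and 2.14% of the nuclear-encoded counts in CS7KO 1 to 4, against 2.28%, 1.83%, 1.39% and 0.42% in CRE 1, 2, 3 and 5. The CS7KO hearts lay inside the CRE range, with means of 1.86% ± 0.24 in CS7KO hearts and 1.48% ± 0.79 in CRE hearts and an exact permutation p of 0.486. The median deviation of the 10 genes from their own mean, on the log2 CPM scale, was 0.14, 0.36, 0.14 and 0.56 in CS7KO 1 to 4, against 0.72, 0.16, -0.49 and -1.37 in CRE 1, 2, 3 and 5. Among CRE hearts it thus fell in the order in which the share of mitochondrially encoded counts went up.

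Cardiomyocyte markers moved with these genes. Of 12 markers, all detected in every library, 8 were higher in CS7KO hearts and none passed edgeR's test. Among them 2 had an unadjusted p under 0.05, against 12.6% of tested genes, and DESeq2 passed 2, against 3.14%. Their summed levels were 37563 to 44783 CPM in CS7KO hearts and 17762 to 61808 CPM in CRE hearts. Their median deviation was 0.09 to 0.42 in CS7KO hearts, against 0.59, 0.01, -0.28 and -1.25 in CRE 1, 2, 3 and 5. In whole hearts, fewer cardiomyocytes and less RNA per cardiomyocyte cannot be told apart. Without CRE 3 and CRE 5, 4 of the 12 were higher. The markers with the highest CPM, Tnnt2 and Myl2, had log2 fold changes of 0.15 (SE 0.42) and -0.07 (SE 0.57). Of 10 endothelial markers 9 were lower, with 698 to 1441 CPM in CS7KO hearts and 1109 to 2517 CPM in CRE hearts. In edgeR 0 of these 10 were called, while 7 fell below 0.05 before adjustment, against 12.6% of tested genes. DESeq2 passed 3, against 3.14%. The groups did not overlap for 4 of them, against 10.3% of tested genes in either direction. All 10 macrophage and monocyte markers were lower, with 679 to 723 CPM in CS7KO hearts, against 2189, 962, 540 and 552 CPM in CRE 1, 2, 3 and 5. CRE 1, the highest library for these markers, was also the highest for Ckb and for the summed cardiomyocyte markers. CRE 5, with Ckb at 108 CPM, had 552 CPM in summed macrophage markers. Endothelial markers summed to 2517 CPM in CRE 5 and 1109 CPM in CRE 1, and neuron and glia markers to 27.1 and 20.1 CPM. Without CRE 1 the macrophage list had 6 of 10 higher. All 9 smooth muscle and pericyte markers were lower, with 669 to 1080 CPM in CS7KO hearts and 823 to 1463 CPM in CRE hearts, and without CRE 3 and CRE 5, 5 of the 9 were higher. In neither list did a marker reach an unadjusted p under 0.05 or pass in DESeq2. Of 10 fibroblast markers 6 were lower, with 1636 to 5178 CPM in CS7KO hearts and 1375 to 4675 CPM in CRE hearts. The part of these cell types in the results was not tested. Markers of neurons and glia, cells in which Ckb is also strongly expressed, summed to 12.7 to 23.0 CPM in CS7KO hearts and 11.0 to 27.1 CPM in CRE hearts. Those of skeletal muscle, which shares Ckm and Mb with the heart, summed to 3.64 to 10.3 CPM in CS7KO hearts and 5.08 to 8.89 CPM in CRE hearts. Of the skeletal muscle markers 8 of 10 averaged under 1 CPM, Myh1 was at 0 in 4 libraries, and CRE 1 and CRE 5 had no count of Myh1, Myh2 or Myh4. Of the neuron and glia markers 5 of 9 averaged under 1 CPM.

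Set against the summed cardiomyocyte-marker counts of the same library, Slc6a8 amounted to 0.518% to 0.688% in CS7KO hearts and 0.252% to 0.509% in CRE hearts. Slc25a5 amounted to 0.690% to 0.714% in CS7KO hearts and 0.401% to 0.686% in CRE hearts. Ckb amounted to 0.106% to 0.147% in CS7KO hearts and 0.188% to 0.606% in CRE hearts. These 3 genes did not overlap between the groups on this scale. All CS7KO hearts were above all CRE hearts for Slc25a5 and Slc6a8, against 1.34% of tested genes, and below them for Ckb, against 6.67%. In edgeR on this scale Slc25a5 had a log2 fold change of 0.43 (SE 0.29, unadjusted p 0.169). Slc6a8 had 0.54 (SE 0.33, unadjusted p 0.136), and Ckb had -1.52 (SE 0.45, unadjusted p 0.00731). Their adjusted p was at least 0.539. Vdac1 overlapped here, at 1.57% to 1.70% in CS7KO hearts and 0.548% to 1.64% in CRE hearts, as CRE 2 reached the CS7KO values. Mb amounted to 14.5% to 16.6% in CS7KO hearts, against 14.1%, 15.9%, 11.3% and 2.79% in CRE 1, 2, 3 and 5.

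**Figure D4:**
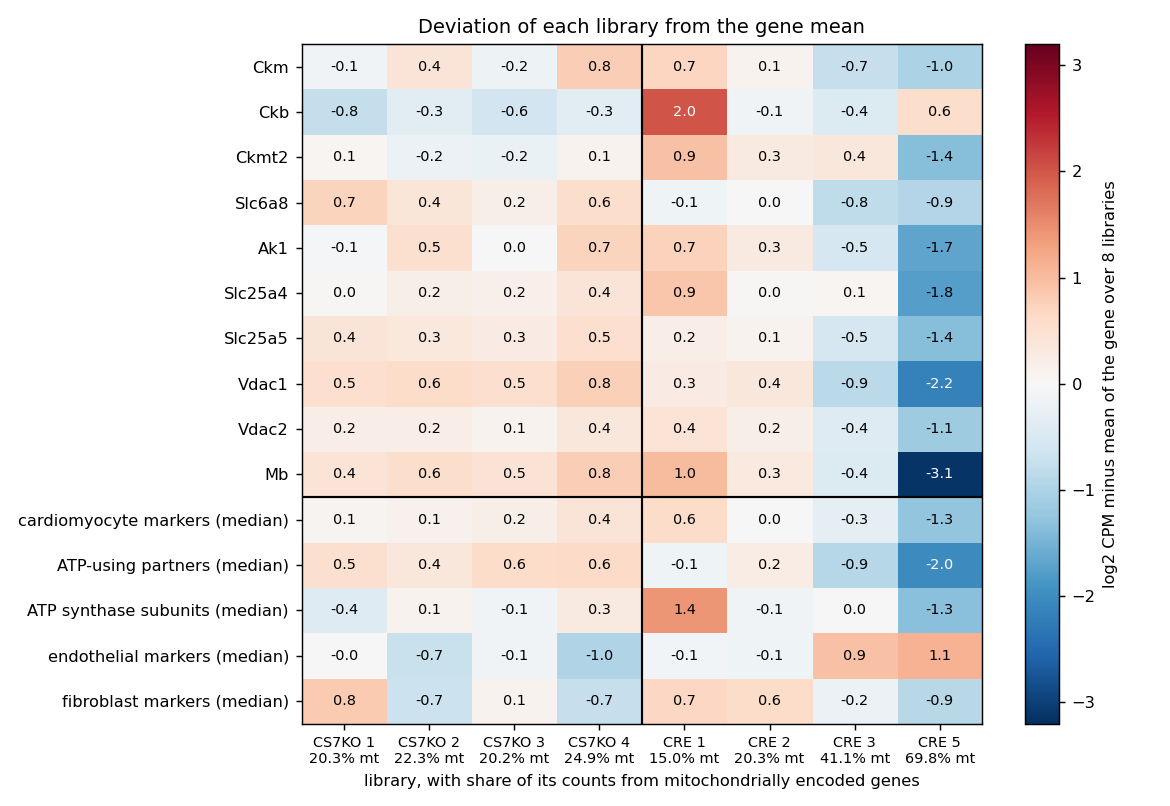
Log2 CPM of each gene minus its mean over the 8 libraries, as colour and number, for CS7KO (left) and CRE (right) libraries with their share of mitochondrially encoded counts, and below the line the median of 5 gene lists on the same scale. CRE 5 was low for all genes but Ckb and for cardiomyocyte markers, and high for endothelial markers.

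Split by labelled sex, the fitted log2 fold change was the higher one in hearts labelled female for all 10 genes, and its size was the larger in 8. Ckb and Ckmt2 were the exceptions in size, with -0.61 and 0.23 in hearts labelled female and -1.84 and -0.70 in hearts labelled male. For Vdac1 the log2 fold change was 2.02 (SE 0.51) in hearts labelled female and 0.26 (SE 0.49) in hearts labelled male. For Mb it was 1.86 (SE 0.81) in hearts labelled female and -0.20 (SE 0.79) in hearts labelled male. None of the 10 genes passed the interaction test in edgeR (adjusted p of at least 0.667), as 0% of tested genes did. At an unadjusted p under 0.05 there were 2 of 10, Vdac1 and Ak1, against 7.08% of tested genes. The CRE hearts labelled female were CRE 3 and CRE 5, so labelled sex and the high mitochondrial share cannot be told apart, and all 8 libraries held Y-linked RNA.

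Around the shuttle, lists of related genes were counted, and no gene of any list passed edgeR's test with the filter on low counts. Without that filter, when 0.695% of genes passed, edgeR called 5 ATP-using partners, 2 genes of the AMPK list, 1 of AMP and adenosine metabolism and 1 carrier or outer membrane partner. The list called ATP-using partners is mixed, with myosin and ion pump genes beside M-line (Myom1, Myom2), LIM-domain (Fhl2) and channel (Kcnj11, Abcc9) genes. It had 11 of 12 tested genes higher in CS7KO hearts, and a median log2 fold change of 1.09 beside 0.03 for all tested genes. Of these 12, 7 had an unadjusted p under 0.05, and the same number passed in DESeq2. For this list and those below, the shares over all tested genes were 12.6% at an unadjusted p under 0.05 and 3.14% in DESeq2. Without CRE 3 and CRE 5 the list had 10 genes higher and a median of 0.52. Myh7, the slow myosin heavy chain that rises in the loaded mouse heart, had 2743 ± 1176 CPM in CS7KO hearts and 662 ± 644 CPM in CRE hearts, a log2 fold change of 2.15 (SE 0.65) and an adjusted p of 0.292. Kcnj11, the pore of the ATP-sensitive potassium channel, had 146 ± 26.9 CPM in CS7KO hearts and 52.5 ± 34.4 CPM in CRE hearts, a log2 fold change of 1.69 (SE 0.45) and an adjusted p of 0.287. Atp1b1, the beta subunit of the sodium pump, had 1.67 (SE 0.49, adjusted p 0.291). ATP synthase subunits had the other sign on balance, with 12 of 18 tested genes lower and a median of -0.22, and without CRE 3 and CRE 5 all 18 were lower, with a median of -1.07. Their direction turned without CRE 1, with 16 of 18 higher and a median of 0.31, and with limma-voom, with 10 of 18 higher and a median of 0.10. Their 3 smallest p-values belonged to the inhibitor Atpif1 at -0.88 (SE 0.42), to Atp5a1 at 0.80 (SE 0.49) and to Atp5e at -1.01 (SE 0.69), all with an adjusted p of at least 0.423.

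Among other carriers and outer membrane partners, 10 of 14 tested genes were higher, with a median of 0.16, 2 had an unadjusted p under 0.05, and DESeq2 passed 1. With libraries scaled by cardiomyocyte markers 5 of 14 were higher. On that scale 29.3% of all tested genes were higher, and their median was -0.35. Without CRE 3 and CRE 5 the count was also 5 of 14, against 58.1% of tested genes. Hk1, a hexokinase that docks to the Vdac pore, had 293 ± 20.2 CPM in CS7KO hearts and 128 ± 58.6 CPM in CRE hearts, with no overlap, a log2 fold change of 1.27 (SE 0.32) and an adjusted p of 0.280. Hk2, the insulin-regulated hexokinase, had a log2 fold change of 1.22 (SE 0.41, adjusted p 0.303), and the calcium-regulated carrier Slc25a24 had -0.66 (SE 0.32, adjusted p 0.434). In AMP and adenosine metabolism 9 of 14 tested genes were higher, with a median of 0.44, 7 had an unadjusted p under 0.05, and DESeq2 passed 1; under cardiomyocyte-marker scaling 7 of 14 were higher. Nt5e, the cell-surface enzyme that makes adenosine from AMP, had 59.8 ± 16.4 CPM in CS7KO hearts and 21.9 ± 13.3 CPM in CRE hearts, a log2 fold change of 1.52 (SE 0.39) and an adjusted p of 0.280. Adss, an enzyme on the way to AMP, had -1.01 (SE 0.31), and the AMP deaminase gene Ampd2 had -1.13 (SE 0.36), both with an adjusted p of 0.295.

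Of the AMPK list, which holds the subunits of the AMP-activated kinase and its upstream kinases, 4 of 9 genes were higher. The median of -0.02 turned positive under several other scalings. Under cardiomyocyte-marker scaling it was -0.39, with 3 of 9 higher, beside -0.35 and 29.3% higher for all tested genes. At an unadjusted p under 0.05 there were 2, and DESeq2 passed 1. Prkaa2, the catalytic subunit common in muscle, had a log2 fold change of 1.48 (SE 0.47, adjusted p 0.295). The beta subunit genes differed in sign, with 1.36 (SE 0.48, adjusted p 0.313) for Prkab2 and -0.47 (SE 0.24, adjusted p 0.443) for Prkab1. Of the other adenylate and nucleoside phosphate kinases 6 of 13 tested genes were higher, 3 had an unadjusted p under 0.05, and DESeq2 passed 1. Their median of -0.01 also turned positive under several other scalings. Under cardiomyocyte-marker scaling it was -0.32, with 4 of 13 higher, again beside -0.35 and 29.3% for all tested genes. Ak4, an adenylate kinase of the mitochondrial matrix, had a log2 fold change of 1.12 (SE 0.35, adjusted p 0.295). Cmpk2, a mitochondrial nucleotide kinase, had -1.58 (SE 0.37, adjusted p 0.274), and the nucleoside diphosphate kinase gene Nme6 had -1.03 (SE 0.41, adjusted p 0.357).

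The genes of creatine synthesis had low levels in these hearts. Gamt, its methylating enzyme, had 2.01 ± 1.25 CPM in CS7KO hearts and 7.17 ± 3.51 CPM in CRE hearts (SD, n = 4 each), with an edgeR adjusted p of 0.295. Gatm, its first enzyme, had 2.65 ± 0.97 CPM in CS7KO hearts and 3.05 ± 2.50 CPM in CRE hearts, with an edgeR adjusted p of 0.970. Ckmt1, the ubiquitous mitochondrial creatine kinase, had 4.58 ± 1.22 CPM in CS7KO hearts and 1.82 ± 0.81 CPM in CRE hearts, with an edgeR adjusted p of 0.327. The groups overlapped for all 3 genes. Of the other globins 2 of 5 tested genes were higher, with a median of -0.14. The haemoglobin genes Hba-a2 and Hbb-bt had log2 fold changes of -0.55 (SE 0.37, adjusted p 0.583) and 0.28 (SE 0.38, adjusted p 0.816). Cygb, cytoglobin, had -0.38 (SE 0.26, adjusted p 0.588). DESeq2 passed no gene of the creatine synthesis, ATP synthase or globin lists, and their counts at an unadjusted p under 0.05 were 2, 0 and 0.

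**Figure D5:**
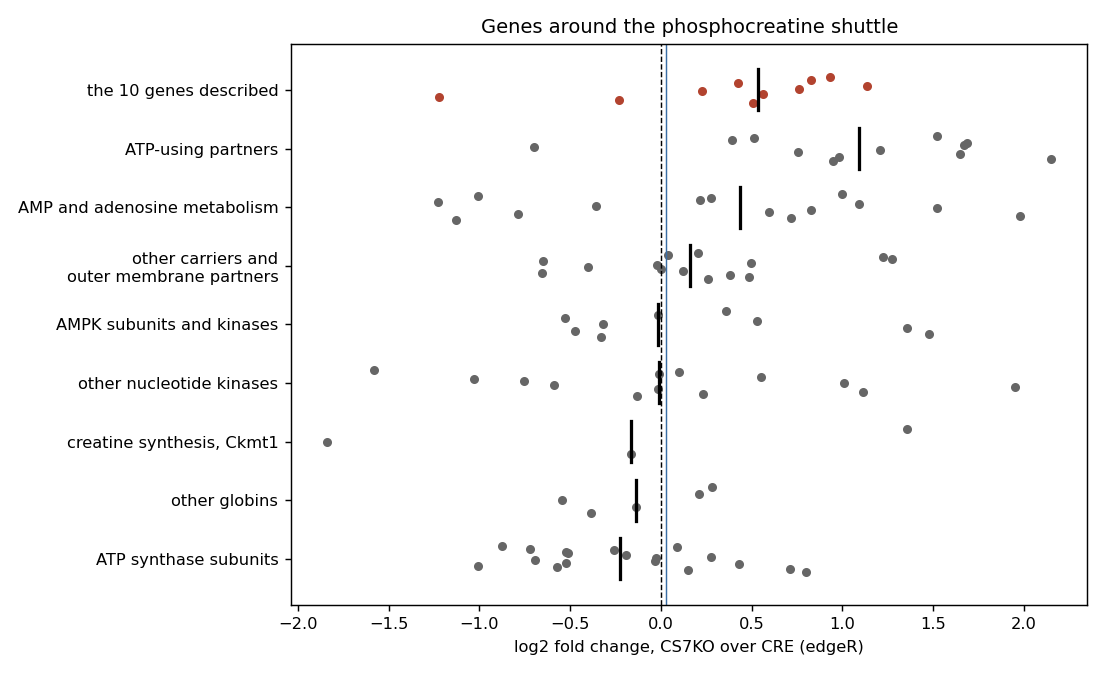
Log2 fold change of CS7KO over CRE from edgeR for every tested gene of each list (points), with list medians (black bars), 0 (dashed line) and the median of all tested genes (blue line). ATP-using partners had the highest median at 1.09 and ATP synthase subunits the lowest at -0.22, a list whose direction turned without CRE 1, while the 10 genes described here had 0.53.

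Genes with the most similar pattern were found for each of the 10 by Pearson's r of log2 CPM over the 8 libraries, among 8539 genes of at least 10 CPM. These values describe the 8 libraries, which share their scaling and the low values of CRE 5. Mb was nearest to Tpm1 (0.997), Myoz2 (0.996) and Mdh1 (0.995). Slc25a4 was nearest to Decr1 (0.998), Atp5b (0.995) and Bckdhb (0.994). Slc25a5 and Vdac1 shared Mpc1-ps (0.998 and 0.997) and Fundc2 (0.997 and 0.995). Their neighbours thus overlapped, and Slc6a8 had others, led by Inpp5a (0.996). Ckm was nearest to Oxnad1 (0.992) and Ckmt2 to Cpt2 (0.983). Ak1 was nearest to Mrps31 (0.995) and Vdac2 to Acads (0.997). Ckb stood with another set, Rpl38-ps2 (0.996), Gemin7 (0.990) and Abhd17a (0.989).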

How the data were processed

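Whole hearts were extracted with Trizol and libraries of polyadenylated RNA were sequenced, per the labels. The authors' deposited table gives raw counts for each gene in 8 libraries, not normalized, beside gene identifiers, lengths and coordinates. It holds 0 sample columns of other series. Tools in the submitters' processing notes are HTSeq 0.6.1, TopHat2 2.0, CASAVA and Cufflinks 2.1.1; the notes list mm10 as well as GRCm38.p6 and give no roles. Only 2.83% of the 52073 genes shared with GENCODE M21 (GRCm38) have equal coordinates, so the table's build is unsettled and its coordinates are printed as given. The strand setting of the counting is not stated in the labels, so overlapping genes cannot be told apart.

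The test was edgeR 4.0.16 under R 4.3.3, on counts: filterByExpr (minimum count 10, minimum total 15), TMM scaling, and a robust quasi-likelihood fit of genotype and labelled sex over all 16002 genes, with Benjamini-Hochberg adjustment and a threshold of 0.05. CPM values use TMM-scaled library sizes. Shares were tested by two-sided exact permutation over all assignments of the 8 libraries, adjusted over 5 shares. Alternatives used DESeq2 1.42.0, limma 3.58.1 and other scalings, filters and sets of libraries. Near-identical copies were found with blastn 2.17.0 (90% identity over 100 bases), using M21 transcripts for sequence. Promoter windows came from RefSeq (GRCm38.p6), matched by symbol for 8 of the 10 genes. The quoted likeness is on log2 CPM with a prior count of 2.

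Replicates of a group differed beyond sampling noise (chi-square over degrees of freedom at least 9.58), so all were kept as separate samples. On simulated counts of 15243 genes the edgeR test found 1 of 96 genes at a 2-fold change, 17 of 95 at a 4-fold change and 0 of 15052 without one.

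Named genes were the 10 genes, Smad7, the 3 genes with the smallest p of each pathway list, the 2 of highest mean CPM in each cell type list, and for likeness the 3 genes of highest r; of the last 2 kinds some are printed. The pseudogenes of Slc25a5, Ckb, Vdac1 and Vdac2, and the gene Comtd1, were given as copies and overlaps. The 10 genes, the lists and the tests were chosen with earlier results of these data known.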

Additional observations from a re-analysis of the deposited data

Results flagged for a closer look

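Of 78 sets of 4 libraries looked at, 5 held 1 library far from the other 3 by Dixon's criterion, which compares the gap to the nearest library with the range of the 4; chance gives about 1 in 20. None of them was among the 10 genes or their shares. Prkab2 was 336 CPM in CS7KO 1 and 64.3 to 82.7 CPM in the other CS7KO hearts (0.932 of the range), and 98.7 CPM in CRE 2 beside 31.7 to 42.2 CPM in the other CRE hearts (0.843). Atp5e was 1828 CPM in CRE 1 and 216 to 329 CPM in the other CRE hearts (0.930). Nme6 was 22.4 CPM in CRE 1 and 7.19 to 8.76 CPM in the others (0.896). Ckmt1 was 3.02 CPM in CRE 5 and 1.37 to 1.502 CPM in the others (0.922).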

How the results depend on the processing

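Of the 10 genes, Ckb, Slc25a5, Vdac1 and Slc6a8 kept their direction in all 25 alternatives. The number of the 10 that passed was 0 in each except DESeq2, where it was 1. Over all tested genes 6 passed; the number was 503 with DESeq2, 338 with no filter on low counts, 0 with protein-coding genes alone (1854 at an unadjusted p under 0.05), 16 without CRE 1 and CRE 5 (26 when the sex term was also dropped), 3 without CRE 3 and CRE 5, 3 when scaled by cardiomyocyte markers, and 3 (without CS7KO 3) to 14 (without CRE 1) with 1 library left out. Scaling by cardiomyocyte markers, and leaving out CRE pairs with no sex term, were chosen after seeing the data. The cardiomyocyte-marker scaling moved the median log2 fold change of all genes to -0.35. Beside it Slc6a8 had 0.54, Vdac1 0.82 and Ckb -1.52, each with an edgeR adjusted p of at least 0.539. With all 8 libraries and no sex term, log2 fold changes were 0.53 for Mb, 0.37 for Ak1 and 0.33 for Vdac2. In that fit Slc25a4 had 0.13 and Ckmt2 -0.30, and these 5 genes had an edgeR adjusted p of at least 0.726. The median of the 10 genes was then 0.37.

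Without CRE 3 and CRE 5 the log2 fold changes of Ckm (-0.30), Ak1 (-0.33), Slc25a4 (-0.46), Vdac2 (-0.16) and Mb (-0.25) reversed; with no sex term as well they were -0.19, -0.26, -0.37, -0.15 and -0.18. Ckmt2 reversed with limma-voom (0.017), without CRE 1 (0.051) and without CRE 3 (0.035), with -0.54 to 0.051 over single libraries left out. Slc25a4 reversed without CRE 5 (-0.14), with -0.14 to 0.59. The cause was not tested.

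Leaving out 1 library gave differences of -18.2 to -11.0 points for the Ckb share, -7.76 to 0.0056 for the Ckmt2 share, 1.03 to 2.69 for the Slc25a5 share, -15.9 to -9.07 for the Vdac2 share and 0.0258 to 0.646 for the share of nuclear counts. The Ckmt2 share reversed without CRE 3 (0.0056), and the nuclear share reversed without CRE 3 and CRE 5 (-0.19). Without CRE 5 the Ckb, Slc25a5 and Vdac2 shares (-11.0, 2.69 and -9.07 points) had an exact permutation adjusted p of 0.0476; the Slc25a5 share then separated because its 1 overlapping heart was left out, which also lowered the adjusted p of the other shares, so these are not read as calls.

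Groups share the replicate numbers 1, 2 and 3, whose deviations correlated at 0.099, -0.075 and 0.33, so the numbers were not taken as pairs; CS7KO 3 alone correlated best with its own number. With a replicate block on these 6 libraries 9 genes passed, against 5 in the same libraries without it, and 0 of the 10 genes in either. Slc25a4 was -0.18 with the block and -0.22 without it.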
